A study of Homo sapiens and Mus musculus with 9 samples.

Results

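The comparison set ribosome footprints of starved HEK293 cells transfected with trans-RNA 2 (called trans2) against those of starved cells with no trans-RNA on their label (called starvation). HEK293 is a human embryonic kidney line, labelled wild type in every library. Per the labels the trans2 cells were starved and transfected with a trans-RNA directed at ATF4, and the series design places the target in the main reading frame of that mRNA. The nutrient withheld, the length of starvation and the sequence of the trans-RNA are not given in the sources used here. Each side is 1 library. The series has no starved group that received a control RNA, so transfection itself and the trans-RNA cannot be told apart. A second starved library with a trans-RNA under the same treatment label (trans1) and an unstarved control library of the same line are given beside trans2 where their values help a reader. Of 16984 transcripts listed in any of the 4 footprint libraries of this 9-sample series, 13456 were listed in both trans2 and starvation, and whole reads could be recovered for 10273 of these. They held 7535030 reads in trans2 and 9388817 in starvation, a median of 243 and 287 reads per transcript. Of the 10273, 10270 had at least 1 CPM (reads scaled to a library of 1000000) in at least 1 of the 2 libraries and enter the counts below.

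In ribosome profiling, RNA not covered by ribosomes is digested and the protected fragments are sequenced, so the number of footprints on an mRNA follows both its amount and how many ribosomes it carries. No RNA-seq of these cells is used here, so those parts cannot be told apart. ATF4 is the main transcription factor made in the integrated stress response, the programme by which amino acid shortage and other stresses slow general initiation. Its mRNA carries upstream reading frames that keep its main frame little translated in unstressed cells. Its known targets include amino acid transporters, aminoacyl-tRNA synthetases and enzymes of serine and proline synthesis. Symbols were paired with 2904 of the 10270 transcripts (28.3%), none of them ATF4, so ATF4 is not reported by name. Of 12 HEK293 markers 4 were among the named transcripts, among them NEFL at 69.0 CPM in trans2 and 75.6 in starvation, LIN28B at 43.7 in trans2 and 41.4 in starvation, and GAPDH at 1302 in trans2 and 1067 in starvation. None of 18 markers of blood, liver, fibroblasts and endothelium was among the named transcripts, which does not show their absence since most transcripts carry no symbol.

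The measure throughout is log2((trans2 CPM + 1)/(starvation CPM + 1)), called the log2 ratio, so a positive value means more footprints in trans2. For log2 ratios of 1 window alone, around the start or the stop codon, CPM is scaled to that window's own total in each library. Brackets give the exact 95% (Clopper-Pearson) interval of the ratio of reads without the added 1. They cover counting error only, and for mRNAs with few reads they lie farther from 0 than the log2 ratio does. With 1 library a side no test was run, no p-value exists, and no spread between replicates is known. A 2-fold difference is a rule of size.

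Footprints per transcript were close between the libraries, and the larger differences were mostly gains in trans2. The median log2 ratio was 0.04, the middle 90% of transcripts lay between -0.47 and 0.74 (percentiles 5 and 95), and 5579 of 10270 were above 0 (54.3%). At least 2-fold higher in trans2 were 202 transcripts (1.97%), and 39 were at least 2-fold lower (0.38%). The counting interval lay wholly beyond 2-fold for 90 of the higher and 13 of the lower. The excess of gains held under all the settings tried, although the numbers did not. With reads of the window around the start codon alone 926 were higher and 224 lower, and with the window around the stop codon alone 975 and 318. Requiring reads at 8 or more positions in both libraries left 130 and 13.

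**Figure D1:**
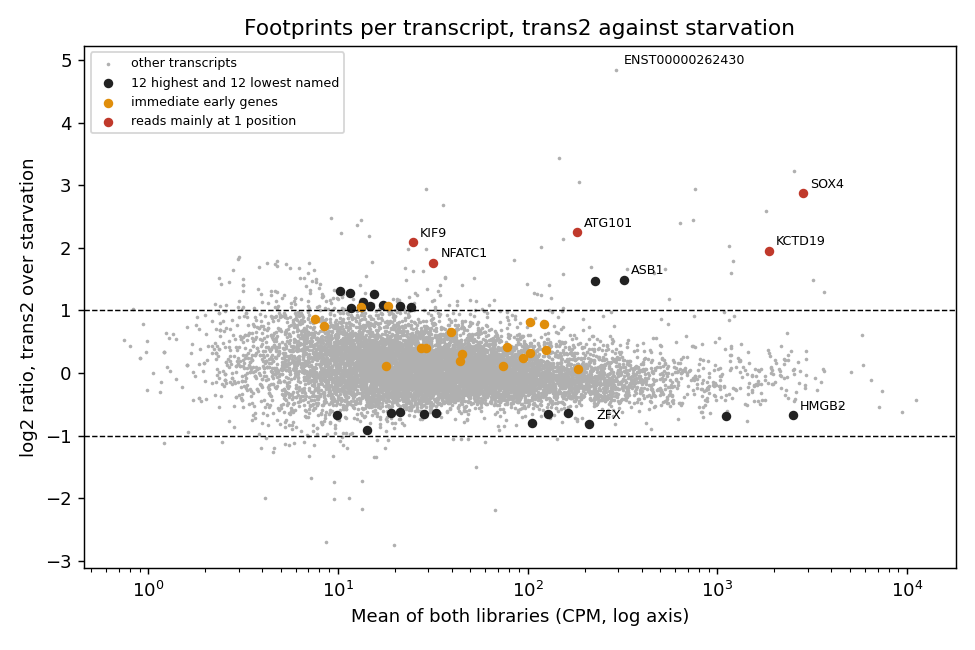
Each point is 1 transcript, with the mean of its CPM in trans2 and starvation on a log axis and its log2 ratio on the vertical axis. Dashed lines mark 2-fold, above which lie 202 transcripts and below which lie 39. The pile-up examples in red reach 2.87 (SOX4), and the immediate early mRNAs in orange all lie above 0.

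The log2 ratio moved with the level of the mRNA. Transcripts were divided into sixths by their CPM in the control library, which enters neither side of the ratio. The median log2 ratio was 0.17 in the lowest sixth (0.282 to 10.0 CPM), then 0.13, 0.08, 0.03 and -0.03, and -0.08 in the highest (111 to 8573 CPM). The share above 0 was 65.7% in the lowest sixth and 37.1% in the highest. Transcripts 2-fold higher numbered 84, 44, 19, 23, 7 and 24 from the lowest to the highest sixth, and those 2-fold lower 26, 6, 0, 6, 0 and 1. Thus mRNAs with few footprints in control cells tended to hold slightly more of the trans2 library, and the abundant ones slightly less. The ratio of trans1 over the same starvation library, which shares its denominator with trans2, had medians of 0.02, -0.02, -0.04, -0.09, -0.11 and -0.15 over the same sixths. The part of this trend in the results on single groups was not tested.

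**Figure D2:**
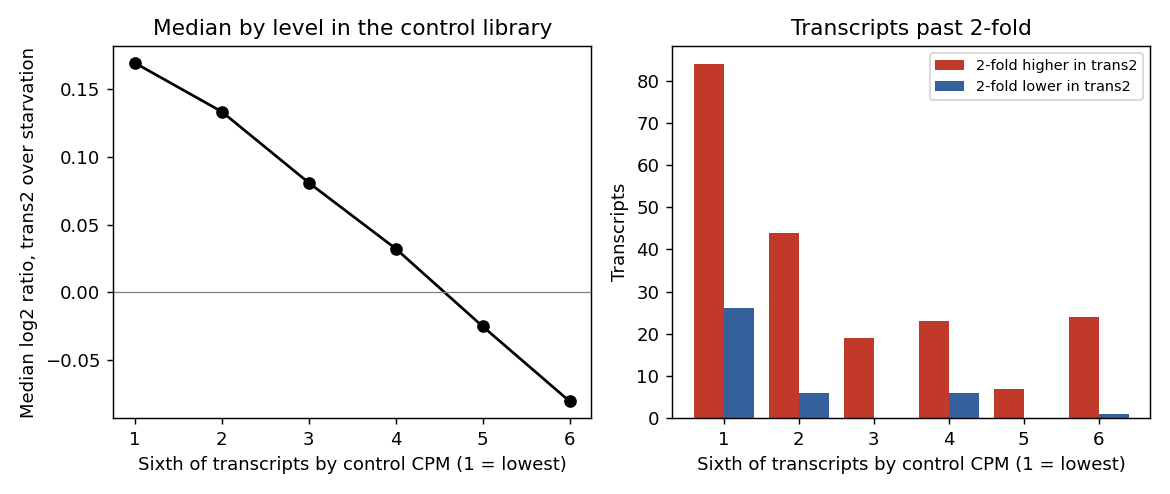
The left panel plots the median log2 ratio of trans2 over starvation in each sixth of transcripts by control CPM, and the right panel the number of transcripts 2-fold higher (red) and 2-fold lower (blue) in trans2. The median steps down from 0.17 in the lowest sixth to -0.08 in the highest, and the lowest sixth holds 84 of the gains.

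Immediate early mRNAs carried more footprints in trans2. These encode transcription factors and regulators that cells make within minutes of a stimulus, with short-lived mRNAs. All 18 measured of 37 listed were above 0, where 54.3% of all transcripts were, and their median log2 ratio was 0.40 against 0.04 over all transcripts. The list was chosen with earlier results of these data known, so these values are a description and not a test. They were higher in each window too, with 15 of 18 above 0 and a median of 0.72 in the start window, 17 of 18 and 0.55 in the stop window, and 15 above 0 in both. Of these 18 mRNAs, 9 lie in the lower 3 sixths by level, whose medians were at most 0.17.

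The AP-1 subunits were spread over the range of this list. FOSL2 had 25.3 CPM in trans2 and 11.6 in starvation, a log2 ratio of 1.06 (0.78 to 1.48). JUNB had 10.1 CPM in trans2 and 5.11 in starvation, at 0.86 (0.44 to 1.53), and JUN had 155 in trans2 and 89.1 in starvation, at 0.79 (0.67 to 0.93). FOSL1 was at 0.40 and JUND, the constitutively made member of the family, at 0.11 (-0.05 to 0.27), within counting error of no difference. For JUN the start window alone gave 101 reads in trans2 and 43 in starvation despite the smaller trans2 library, while the stop window gave 361 and 326.

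Other regulators of the list followed. KLF4, a Krüppel-like transcription factor, had 18.3 CPM in trans2 and 8.31 in starvation, at 1.05 (0.73 to 1.56), the second of only 2 members past 2-fold. DUSP1, a phosphatase that switches off MAP kinases, had 132 CPM in trans2 and 74.5 in starvation, at 0.81 (0.68 to 0.96). CSRNP1 was at 0.75, the Notch target HES1 at 0.66, IER2 at 0.41, the antiproliferative BTG2 at 0.40, IER5 at 0.36 and the helix-loop-helix protein ID2 at 0.32. SRF, the factor that binds many immediate early promoters, was at 0.30, the survival factor MCL1 at 0.24, KLF6 at 0.18 and BHLHE40 at 0.11. CCN1, a secreted matrix protein, was lowest at 0.07 (-0.03 to 0.17), with 188 CPM in trans2 and 180 in starvation.

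Trans1 and control values stand beside these as a description. FOSL2 had 24.8 CPM in trans1 and 11.4 in control, and JUN 165 in trans1 and 92.7 in control. DUSP1 had 93.7 CPM in trans1 and 117 in control, and KLF4 10.9 and 13.7, so for these both trans2 was the highest of the 4 libraries. In trans1 the same 18 mRNAs had a median log2 ratio of 0.25 over the shared starvation library. The authors' deposited table of log2 fold changes for reading frames held a coding or truncated coding frame for 14 of the 18, of which 6 were above 0, 6 below and 2 at 0. That table's value was 0.05 for KLF4, -0.04 for JUN, 0.14 for DUSP1 and 0.04 for JUNB, beside a median of -0.10 over its 9417 truncated frames. The scaling of those values is unknown.

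**Figure D3:**
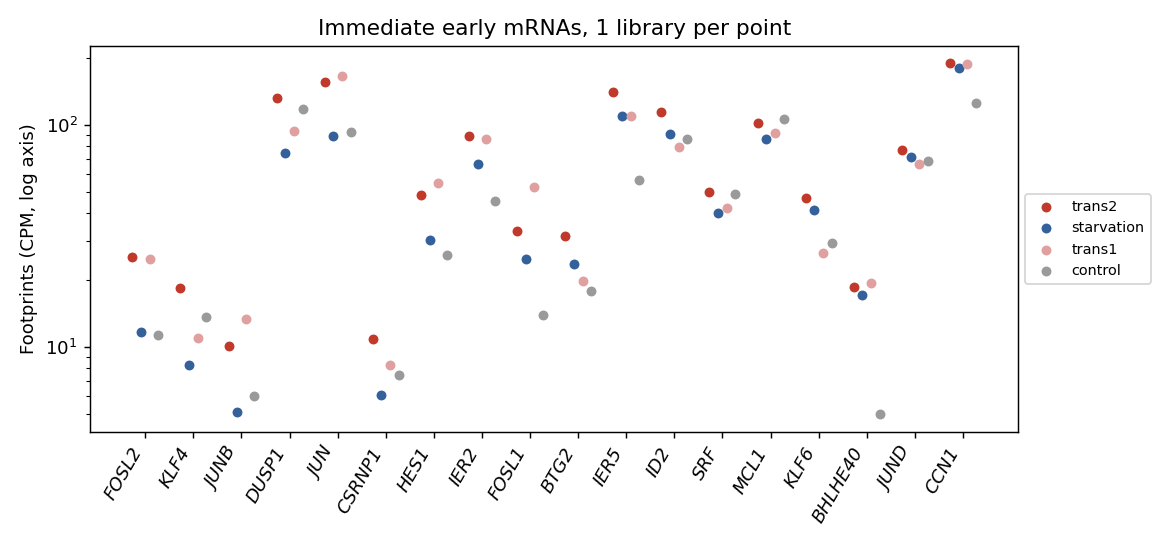
Points give footprints in CPM on a log axis for 18 immediate early mRNAs, 1 library per point, in the order trans2, starvation, trans1 and control, with mRNAs sorted by their log2 ratio of trans2 over starvation. The trans2 point lies above the starvation point for each mRNA, from FOSL2 at 1.06 down to CCN1 at 0.07.

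Cholesterol mRNAs were mostly higher in trans2, with 5 of 6 measured above 0 (25 listed) and a median of 0.47. SQLE, the squalene epoxidase, had 60.1 CPM in trans2 and 38.7 in starvation, at 0.62 (0.43 to 0.84). DHCR7, which makes cholesterol from its last precursor, was at 0.48, HSD17B7 at 0.45 and INSIG1, which retains the pathway's transcription factor in the endoplasmic reticulum, at 0.36. The exception was HMGCS1, the synthase at the start of the pathway, with 66.8 CPM in trans2 and 82.5 in starvation, at -0.30 (-0.47 to -0.14). Control cells had 132 CPM of HMGCS1 and 71.4 of SQLE.

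All 5 measured mRNAs of the unfolded protein response were below 0, with a median of -0.32 (-0.15 in the start window and -0.44 in the stop window). Over all transcripts 54.3% were above 0. Of these mRNAs 1 lies in the lower 3 sixths by level, and their median was 204 CPM in control. In the highest sixth 37.1% of transcripts were above 0, with a median log2 ratio of -0.08. CANX, the lectin chaperone calnexin, had 848 CPM in trans2 and 1080 in starvation, at -0.35 (-0.40 to -0.30). DNAJB11 had 202 CPM in trans2 and 253 in starvation, at -0.32, HERPUD1 of endoplasmic reticulum protein degradation was at -0.32 and HYOU1 at -0.29. HSPA5, the chaperone BiP, had 257 CPM in trans2 and 302 in starvation, at -0.24 (-0.32 to -0.15), but 0.21 in the start window alone. The authors' deposited table gave -0.47 for CANX, -0.44 for DNAJB11 and -0.60 for HSPA5, beside medians of -0.25 over its coding frames and -0.10 over its truncated frames.

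Cytosolic chaperones had 8 of 10 below 0 and a median of -0.30, but the windows did not show this, with a median of 0.14 in the start window and -0.02 in the stop window. They are abundant mRNAs, with a median of 363 CPM in control and 0 in the lower 3 sixths by level. Above 0 were 54.3% of all transcripts but 37.1% of the highest sixth, whose median log2 ratio was -0.08. DNAJA1, an HSP40 partner of HSP70, was lower in both windows as well, with 184 CPM in trans2 and 267 in starvation, at -0.53 (-0.63 to -0.44). TCP1, a subunit of the chaperonin CCT that folds actin and tubulin, was at -0.36 and also lower in both, with -0.49 and -0.52. CCT6A and CCT5 of the same complex were at -0.35 and -0.34, CCT4 at -0.13 and HSPA8 at -0.26. HSP90AB1 was at -0.38 in all reads but 0.38 in the start window. HSPA1B, the heat-inducible HSP70, had 54.7 CPM in trans2, 46.0 in starvation and 156 in control, at 0.24 (0.05 to 0.45). Its near-identical copy HSPA1A can share reads with it. In the authors' deposited table all 7 chaperones with a frame were below 0, with a median of -0.44. Most lists lay below 0 in that table, whose median was -0.25 over coding frames, with splicing factors 15 of 18 below 0 and ubiquitin and proteasome 14 of 17.

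Targets and partners of ATF4 were spread about 0. Of 10 measured mRNAs of this stress response, 6 were above 0, with a median of 0.21 (0.24 in the start window and 0.01 in the stop window). BBC3, the cell death protein PUMA, had 44.7 CPM in trans2 and 23.2 in starvation, at 0.92 (0.70 to 1.2). SESN2, an inhibitor of mTORC1, was at 0.56, and the amino acid transporters SLC7A1, SLC7A5 and SLC38A2 were at 0.52, 0.39 and 0.26. ALDH18A1 of proline synthesis was at -0.19, PSPH of serine synthesis at -0.09 and CEBPB, which pairs with ATF4, at -0.12. Of 9 aminoacyl-tRNA synthetases 3 were above 0 and the median was -0.03, with NARS1 at -0.30. Of 6 mRNAs with regulatory upstream frames other than ATF4, 3 were above 0, with a median of 0.03 and values from -0.14 for SLC35A4 to 0.23 for AZIN1.

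The interferon and RNA sensing list had 3 measured members, 2 of them above 0, with a median of 0.43. IRF1 was at 0.69, the RNA-sensing adaptor MAVS at 0.43 and IFITM1 at -0.06. Homeobox genes had 11 of 16 above 0 and a median of 0.25, with DLX3 at 1.46 from 11.1 CPM in trans2 and 3.41 in starvation. HOXB8 was at 1.05 in all reads but below 0 in the start window alone, TGIF2 was at 0.66, and HOXA7 was lowest at -0.26. Of the 16, 11 lie in the lower 3 sixths by level. Glycolysis had 5 of 5 above 0 and a median of 0.27, led by the lactate exporter SLC16A3 at 0.68, which had only 6.77 CPM in trans2 and 3.83 in starvation. GAPDH was at 0.29 (0.25 to 0.33). Targets of p53 had 7 of 8 above 0 and a median of 0.21, with BBC3 and SESN2 shared with the stress response list and RRM2B at 0.28. The authors' deposited table had 1 of 5 p53 targets above 0 and 4 below. It had 2 of 7 homeobox genes above 0 and 5 below, and 0 of 2 glycolysis mRNAs above 0. The list medians there were -0.06 for p53 targets, -0.01 for homeobox genes and -0.08 for glycolysis. That table lay below 0 as a whole, with medians of -0.19 over all frames, -0.25 over coding frames and -0.10 over truncated frames. Each list median lay above these values, so counts about 0 give no direction here.

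FTH1 was the highest of 6 NRF2 targets. FTH1, the ferritin heavy chain, had 143 CPM in trans2, 77.4 in starvation, 51.5 in trans1 and 155 in control, at 0.87 (0.74 to 1.02). FTL, the light chain, had 112 CPM in trans2 and 80.8 in starvation, at 0.47 (0.33 to 0.62). GCLC of glutathione synthesis was at 0.61 but -0.14 in the start window, and PGD was at -0.36. In the stop window alone FTH1 was at 0.14 and FTL at 0.25. The authors' deposited table gave -0.47 for FTH1 and -0.11 for FTL, and all 3 NRF2 targets with a frame there were below 0. The list had 3 of 6 above 0 and a median of 0.19, or -0.16 in the start window alone.

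Medians near 0 were found for lysosome and autophagy, with 9 of 17 above 0 and 0.07, respiratory chain, with 8 of 18 and -0.02, nuclear pore, with 2 of 8 and -0.04, cell cycle, with 8 of 17 and -0.05, splicing factors, with 10 of 23 and -0.05, and ubiquitin and proteasome, with 11 of 23 and -0.05. In the start window alone the last 5 were above 0, and leaving out each transcript's highest position put lysosome and autophagy at -0.03 and cell cycle at 0.01. Within them SRSF2, a splicing activator, had 63.7 CPM in trans2 and 35.8 in starvation, at 0.81 (0.63 to 1.04), whereas HNRNPC had 530 in trans2 and 753 in starvation, at -0.50 (-0.56 to -0.45). PRPF8 of the spliceosome core was at 0.62. The complex I subunits NDUFA9 and NDUFS1 were at -0.54 and -0.44, and the ATP synthase subunits ATP5MC3 and ATP5F1E at 0.36 and 0.35. ATP6V0C of the lysosomal proton pump was at 0.94, NUP205 at 0.32, NUP50 at -0.27, CCND2 at -0.59 and E2F1 at 0.48.

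**Figure D4:**
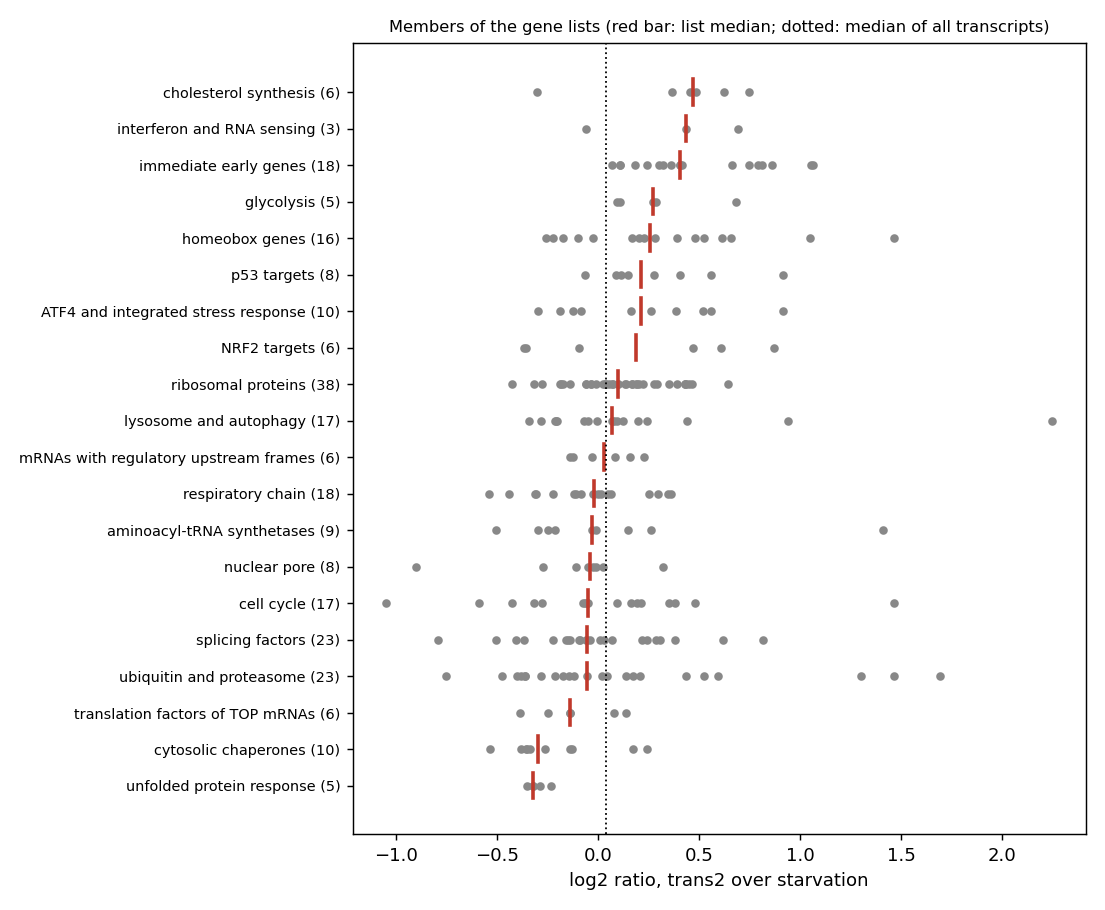
Grey points are the members of each gene list by log2 ratio of trans2 over starvation, red bars the list medians, and the dotted line the median of all transcripts (0.04). Numbers in brackets count the measured members. Cholesterol synthesis (0.47), interferon and RNA sensing (0.43) and immediate early genes (0.40) lie to the right and the unfolded protein response (-0.32) and chaperones (-0.30) to the left, while the single points farthest right, ATG101 and RCHY1, rest on reads at 1 position or outside the windows.

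Ribosomal protein mRNAs differed among themselves more than as a group. Their mRNAs begin with a cytidine and a run of pyrimidines, the TOP motif, through which mTORC1 controls their translation. Of 38 measured, 26 were above 0, with a median of 0.10, and none was past 2-fold. The median was 0.20 in the start window and 0.21 in the stop window. Above 0 were 54.3% of all transcripts and 37.1% of the highest sixth by level, whose median was -0.08. The ribosomal protein mRNAs had a median of 2418 CPM in control, with 0 in the lower 3 sixths, so the group lay above transcripts of high level. RPL37A had 2829 CPM in trans2 and 1812 in starvation, at 0.64 (0.61 to 0.67), RPS19 had 1543 in trans2 and 1119 in starvation, at 0.46, and RPS28 was at 0.45 and RPL27 at 0.44. RPL41 had 9508 CPM in trans2 and 12785 in starvation, at -0.43 (-0.44 to -0.41), and RPLP1 809 in trans2 and 1009 in starvation, at -0.32 (-0.37 to -0.27). Pseudogene copies of these genes can share reads with them. The authors' deposited table held frames of 30 of these mRNAs, 11 above 0 and 19 below, with a median of -0.15 beside -0.25 over its 2118 coding frames. Of 6 translation factors with TOP mRNAs 2 were above 0, with a median of -0.14, NAP1L1 at -0.38 and EIF3A at -0.25.

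The annotated starts of the 3 highest and 3 lowest ribosomal protein mRNAs are printed to show whether an annotated TOP start went with their place in that order. Each holds 10 bases before and 20 from the RefSeq start (GRCh38.p14), 5′ to 3′ on the strand of the gene, in lower case, with the pyrimidine run that opens the mRNA with a cytidine in capitals. They lie at chr2:216498834-216498863 (RPL37A, plus strand), chr19:41860245-41860274 (RPS19, plus), chr19:8321486-8321515 (RPS28, plus), chr15:66504836-66504865 (RPL4, minus), chr15:69452808-69452837 (RPLP1, plus) and chr12:56116623-56116652 (RPL41, plus).
RPL37A: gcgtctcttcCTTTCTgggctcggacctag
RPS19: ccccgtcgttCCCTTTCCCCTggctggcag
RPS28: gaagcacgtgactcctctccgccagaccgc
RPL4: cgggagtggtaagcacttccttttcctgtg
RPLP1: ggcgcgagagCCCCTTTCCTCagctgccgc
RPL41: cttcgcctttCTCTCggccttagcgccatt
Runs of 6 and 11 bases opened RPL37A and RPS19, and runs of 11 and 5 bases opened RPLP1 and RPL41, so both ends of the order hold such starts, and each end has 1 annotated start without one. In RPS28 and RPL4, which have none at the annotated start, a run of pyrimidines begins shortly after it. A start with C and 4 pyrimidines after it, read on the gene's strand alone, was found in 17 of 29 ribosomal protein genes with an entry (58.6%) and in 1429 of 35116 RefSeq promoters (4.07%). The median log2 ratio was 0.07 for the 17 with this start and 0.09 for the other 12. Among 2360 other named transcripts it was 0.04 both with this start, in 125, and without it. The 12 ribosomal protein mRNAs without it can include TOP mRNAs whose annotated start is a few bases off. The medians therefore compare annotated starts and cannot compare mRNAs with and without the motif.

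Single mRNAs were chosen among 1027 named transcripts with at least 10 CPM in 1 library, 20 reads in each window, one sign in both windows and under 50% of window reads at 1 position. Named transcripts with higher ratios that fall outside these conditions are described further on. ASB1, a substrate receptor of cullin ligases, had 473 CPM in trans2 and 168 in starvation, at 1.49 (1.41 to 1.58). CDC34, the ubiquitin-conjugating enzyme of SCF ligases, had 332 CPM in trans2 and 120 in starvation, at 1.46 (1.37 to 1.57). Most of the difference of both lay outside the windows, with 3456 reads there in trans2 and 1518 in starvation for ASB1, and 1427 and 119 for CDC34. In the windows CDC34 had 469 reads near the start codon in trans2 and 321 in starvation, and 609 and 686 near the stop codon.

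The F-box protein FBXO46 followed with 15.0 CPM in trans2 and 5.43 in starvation, at 1.31 (0.98 to 1.97). TRNP1, a nuclear protein of cortical progenitors, was at 1.27, the zinc finger genes ZNF776 and ZNF584 at 1.27 and 1.09, TMEM41A at 1.14 and KLF13 at 1.06. ADO, a thiol dioxygenase, had 29.1 CPM in trans2 and 13.3 in starvation, at 1.07 (0.80 to 1.46). KLF4 was at 1.05, PAQR4 at 1.05 and the peroxisomal membrane protein PXMP4 at 1.04. Apart from ASB1 and CDC34 these mRNAs had 15.0 to 33.2 CPM in trans2 and 5.43 to 15.6 in starvation. They lie in the lower 3 sixths by level.

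The 12 lowest under the same conditions were all within 2-fold, and HMGB1 and HMGB2 were the most abundant of them. HMGB2, a high-mobility-group protein that bends DNA, had 1918 CPM in trans2 and 3068 in starvation, at -0.68 (-0.71 to -0.65). HMGB1 had 855 CPM in trans2 and 1381 in starvation, at -0.69 (-0.73 to -0.65). Their window values, whose shared sign the choice of mRNAs required, were -0.51 for HMGB2 and -0.57 for HMGB1 near the start codon, and -0.67 and -0.68 near the stop codon. In trans1 HMGB2 had 3108 CPM and HMGB1 1500, and in control 1209 and 1165, so trans2 lay below starvation and trans1 for both. Processed pseudogenes of these genes can share their reads. The authors' deposited table gave -0.82 for the coding frame of HMGB2.

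GFPT2, the first enzyme of hexosamine synthesis, had 9.56 CPM in trans2 and 18.9 in starvation, at -0.91 (-1.40 to -0.58). ZFX, a zinc finger transcription factor, had 153 CPM in trans2 and 270 in starvation, at -0.82 (-0.92 to -0.72), beside 157 in trans1 and 167 in control. SREK1IP1, a partner of a splicing factor, had 76.8 CPM in trans2 and 134 in starvation, at -0.79. JADE3 of a histone acetyltransferase complex was at -0.66, RNF20, the ligase that ubiquitinates histone H2B, at -0.65, PCBD2 at -0.66, the Golgi protein GOLPH3L at -0.64, C4orf33 at -0.64, the filament protein SEPTIN11 at -0.64 and MAP4K3, a kinase of amino acid signalling to mTORC1, at -0.63. CDC42, a small GTPase, and TPR of the nuclear pore basket had lower totals, at -1.05 and -0.90. Their windows did not show this. CDC42 had 0 reads in the start window of both libraries, and 35 near the stop codon in trans2 and 33 in starvation, while its reads outside the windows were 236 and 618. TPR was at -0.08 in the start window and 0.41 in the stop window.

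Where a transcript's reads lie could be read only for the windows, which take in 300 nt of coding region and 30 nt outside it at each end and held 58.6% of reads in trans2 and 60.1% in starvation. Of the 202 transcripts 2-fold higher, 136 had at least 50% of their CPM difference outside the windows, 17 at 1 window position, 33 in the rest of the windows, and 18 had no such majority. Some meet more than 1 of these conditions, since the parts can have opposite signs. Of the 202, 141 were above 0 in both windows. Of the 39 transcripts 2-fold lower, 31 had most of the difference outside the windows and 24 were below 0 in both. The 202 had a median of 19.2 CPM in trans2 and 7.24 in starvation.

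The transcript with the largest log2 ratio among those with at least 100 CPM shows the first case. ENST00000262430, which carries no symbol here, had 569 CPM in trans2, 18.9 in starvation, 57.9 in trans1 and 37.1 in control, at 4.84 (4.70 to 5.14). Of its 4291 reads in trans2 and 177 in starvation, 18 and 17 lay in the windows. USP7, a deubiquitinase that stabilises MDM2, had 5200 CPM in trans2 and 2113 in starvation, at 1.30 (1.27 to 1.32), but -0.53 near the start codon and -0.57 near the stop codon. RCHY1, a p53-induced ubiquitin ligase, was at 1.69 in all reads, and at -0.48 and -0.54 in the windows. For USP7 and RCHY1 the added reads lay at places the files do not resolve, and both windows held fewer footprints in trans2.

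A few mRNAs owed their ratio to 1 position. SOX4, a transcription factor with a single-exon gene, had 36635 reads at position -225 before the stop codon in trans2 and 5785 in starvation, 99.1% and 98.1% of its window reads. Control had 6768 reads at that position and trans1 4656, so the pile-up is present in all 4 libraries. SOX4 was at 2.87 (2.83 to 2.91) in all reads and 0.88 without that position. The autophagy subunit ATG101 had 1839 reads at position -5 before the stop codon in trans2 and 153 in starvation. It was at 2.25 in all reads, 0.27 without that position and -0.05 in the start window. The arginyl-tRNA synthetase RARS1 had 1032 reads at position -92 before the stop codon in trans2 and 145 in starvation, and was at 1.41 in all reads and -0.08 without it.

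The other examples differed. KIF9, a kinesin, had 257 reads at position -27 before the start codon in trans2 and 42 in starvation, and was at 2.09, or 0.52 without it. KCTD19 had 12548 reads at position 295 in trans2 and 4357 in starvation but stayed at 2.08 without it, against 1.95 with it. NFATC1 was at 1.76, and its windows held only 11 reads in trans2 and 6 in starvation, while 363 and 125 lay outside. The authors' deposited table gave 1.00 for the truncated frame of SOX4, 0.41 for ATG101, -0.36 for RARS1, -0.25 for USP7, 0.04 for ASB1 and 0.08 for the coding frame of CDC34.

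The start and stop windows of an mRNA often went different ways. Among 7841 transcripts with at least 20 reads in each window over both libraries, the median log2 ratio was 0.11 in the start window and 0.08 in the stop window, with a median difference of -0.01. Each window was scaled to its own total in each library. A shift of reads from one window to the other over all transcripts is thus removed from these values, and they cannot show it. The sign was the same in both windows for 4722 of them (60.2%), and the difference between windows ran from -1.18 to 1.28 over percentiles 5 to 95.

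ENST00000674920, which has no symbol here, had the largest difference between windows among 2012 transcripts with at least 100 CPM, with the start window 4.84 above the stop window on the log2 scale and the next transcript at 2.93. It had 4584 CPM in trans2, 487 in starvation, 7913 in trans1 and 288 in control, at 3.23 (3.19 to 3.28), and a recovered length of 1059 nt. Reads in the first 100 nt numbered 16727 in trans2 and 758 in starvation, 27.5-fold higher after scaling to library totals (25.6 to 29.6). Over the last 300 nt they numbered 841 in trans2 and 1665 in starvation, 0.629-fold (0.579 to 0.684). Reads outside both windows, at places the files do not resolve, numbered 10388 in trans2 and 1366 in starvation, 9.48-fold higher (8.95 to 10.0). Within the windows the gain thus lay near the start codon, and the last 300 nt held fewer footprints in trans2.

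Those early footprints were mostly not in the coding frame. Of reads in the first 100 nt, 64.8% in trans2 and 71.6% in starvation were in frame 2, that is at positions 2 nt past the first base of a codon, while 25.9% and 21.2% were in frame 0, the coding frame. In the last 300 nt frame 0 held 72.9% in trans2 and 81.8% in starvation. Trans1 and control had 60.1% and 74.7% in frame 2 over the first 100 nt. The highest positions were 11, with 3270 reads in trans2 and 164 in starvation, -1, with 2041 and 115, and 8, with 1381 and 107, all in frame 2. Position 47, also in frame 2, had 1321 reads in trans2, 9 in starvation, 357 in trans1 and 30 in control. Position -3 had 903 reads in trans2, 56 in starvation and 4733 in trans1.

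**Figure D5:**
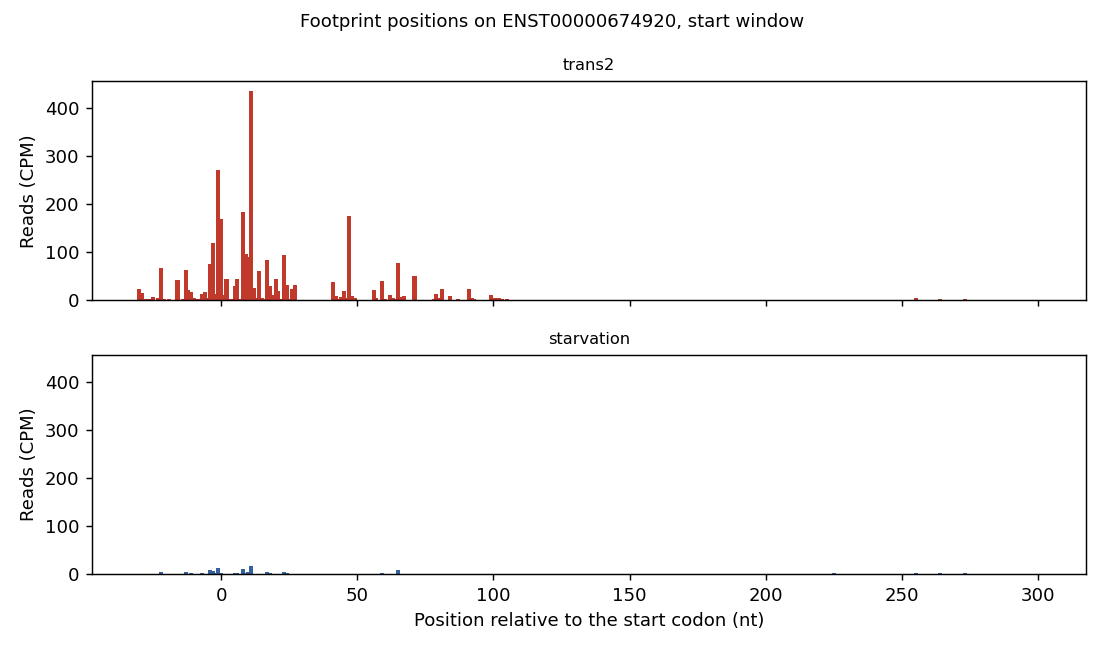
Bars give reads at each position of the start window of ENST00000674920 as CPM, with trans2 above and starvation below on the same axes and the position counted in nt from the start codon. The trans2 reads crowd between about the window's left edge and nt 100, with the tallest bar at position 11 (3270 reads in trans2 and 164 in starvation), and little lies beyond.

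The average footprint profile had its peaks at the same positions in both libraries. Over 9588 transcripts with reads at 8 or more positions in both libraries, density relative to the transcript mean was highest before the start codon at position -12, with 7.61 in trans2 and 7.76 in starvation (6.34 and 6.21 where reads at 30 or more positions were required), and before the stop codon at position -18, with 10.2 in trans2 and 11.3 in starvation. Near the start, position -3 was at 3.11 in trans2 and 3.41 in starvation, and position 0 at 4.74 and 4.64. Mean density over nt 1 to 59 was 0.931 in trans2 and 0.871 in starvation, and over nt 150 to 300 1.04 and 1.07. Before the stop codon, from -300 to -31, it was 0.846 in trans2 and 0.881 in starvation. In 8264 transcripts long enough for separate windows, the first 100 nt held 8.33% of reads in trans2 and 7.70% in starvation, and the last 300 nt 24.4% and 26.1%. ENST00000674920, with 16727 reads in its first 100 nt in trans2 and 758 in starvation, is among these and was not left out. How much of the gap it makes up was not tested.

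Footprints in the coding frame made up a smaller share in trans2. Frame 0 held 85.5% (85.5 to 85.6) of 4196214 window reads in trans2 and 88.0% (87.9 to 88.0) of 5386746 in starvation, with 85.2% in trans1 and 87.1% in control. Frame 1 held 8.15% in trans2 and 6.35% in starvation. Without the highest position of each transcript frame 0 held 84.9% in trans2 and 86.7% in starvation, so the gap was smaller but had the same direction. Replicate error is unknown, so whether such a gap exceeds the spread between libraries of 1 condition was not tested.

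The authors' deposited table of log2 fold changes, for trans2 against starvation as its name gives it, covers 41748 reading frames with a median of -0.19. Of these 299 were at least 2-fold higher (0.716%) and 1792 at least 2-fold lower (4.29%). Reads per transcript had more gains than losses, but these balances are not like for like. The table counts frames, its scaling is unknown, and its median was -0.19 where that of reads per transcript was 0.04. Complete coding frames numbered 2118 with a median of -0.25, 0 of them 2-fold higher and 3 lower. Frames upstream of the coding region numbered 6143, with a median of -0.09, 77 higher and 260 lower. Frames overlapping the coding start numbered 1581, with a median of -0.19, 11 higher and 54 lower, and one of these had the highest value in the table, 4.39. Equal values recur among the highest of them, as 4.35 on both ENST00000679776 and ENST00000675582. Counts of frames in that table can thus hold 1 frame more than once. Frames inside the coding region but in another frame (iORF in the table) numbered 7468, with the lowest class median, -0.36, 49 higher and 736 lower. Frames on RNAs classed as noncoding numbered 10472, with 129 higher and 456 lower.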

How the data were processed

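Per the submitters' processing notes, STAR 2.7.10a, Bowtie 1.2.3, cutadapt 2.8 and bcl2fastq 2.20.0.422 were used, in roles that are not stated, with the build GRCm39, although the cells and the transcript IDs are human. The genome used, the offset of footprint positions and the treatment of reads with several matches are not given in the sources used here. Fragments of 25 to 35 nt were selected on a gel, per the labels' protocols. Per the file headers and values, each deposited density table gives a signal at every position from 30 nt outside to 300 nt inside the coding region at its start and stop, relative to the mean of the transcript. The authors' deposited fold table holds 1 log2 value per reading frame. Symbols came from the deposited lists of small RNA peaks, which pair transcript IDs with symbols. RefSeq promoters (GRCh38.p14) gave transcript starts for 2389 named transcripts.

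Each transcript's densities in a library are whole multiples of 1 step, equal to its length divided by its reads. The length, shared by the libraries, was taken as the smallest multiple of 3 that gives whole reads in 2 or more libraries, each with 8 or more covered positions, and no fewer than the windows hold. It was found for 10281 transcripts, with a median of 1212 nt among members. A wrong length scales a transcript's total alike in every library and leaves the plain ratio of its reads unchanged. It does alter the log2 ratio through the added 1, mostly for mRNAs with few reads, and also the CPM and the reads counted outside the windows. In 391 (trans2) and 392 (starvation) of 409 transcripts of at most 270 nt, whose coding region the start window holds whole, the total exceeded the window's reads, so totals take in reads from elsewhere. Reads were scaled to the library's recovered total, as CPM. For log2 ratios of 1 window alone they were scaled to that window's total, and with the top position left out to the total without those positions. No count test was used, since each side is 1 library. On simulated densities of 1500 transcripts, reads were recovered for 1317, and the true ratio came back for 1314 of these. Among the recovered, a 3-fold change was called for 85 of 86 higher and 84 of 85 lower transcripts, and 2 of 1146 unchanged ones were called. Simulated transcripts that were not recovered, changed ones among them, do not enter these rates. The simulated reads varied by counting error only, so the calls among unchanged transcripts do not measure spread between libraries.

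The named genes are the transcript with the largest log2 ratio at 100 CPM or more, the 12 highest and 12 lowest named mRNAs with at least 10 CPM in 1 library, 20 reads in each window, one sign in both windows and under 50% of window reads at 1 position, the 5 highest with 50% or more at 1 position, and the 4 largest per list. Histones were left out of the 12 highest, the 12 lowest and the 5 highest at 1 position. No filter for pseudogenes was applied. Some genes that meet the rule are not reported here. RPL41, RPLP1, RPL4, JUN and further members of the immediate early, chaperone and stress lists were named after their values were seen, as was ENST00000674920. Members and the 20 gene lists were chosen with earlier results of these data known. Python 3.11.15, numpy 2.4.6, pandas 2.3.3 and scipy 1.17.1 were used.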

Additional observations from a re-analysis of the deposited data

How the results depend on the processing

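No paired analysis was possible because each group is 1 library and no replicate numbers are shared, and no replicate could be left out. Main counts were 202 transcripts 2-fold higher and 39 lower. They were 75 and 15 with a pseudocount of 5 CPM, 926 and 224 in the start window alone, 975 and 318 in the stop window alone, 902 and 245 at a threshold of 1.5-fold, and, in an alternative chosen after seeing the data, 130 and 13 with reads at 8 or more positions in both libraries. The other alternatives kept both counts within 1.5 times. The median log2 ratio of 0.04 was 0.11 in the start window alone, 0.10 in the stop window alone, 0.057 with the top position left out, 0.014 after centring on transcripts at 10 CPM or more, 0.024 at 10 CPM or more and 0.029 with reads at 8 positions. With reads at 30 or more positions the density at -12 was 6.34 in trans2 and 6.21 in starvation, so that trans2 was then the higher, and at -18 it was 9.68 and 10.7. With the top position left out the frame 0 share was 84.9% in trans2 and 86.7% in starvation. With the start window alone the log2 ratio was -0.17 for ENST00000262430, -0.046 for ATG101, -0.40 for HOXB8, -0.48 for RCHY1 and -0.53 for USP7. With the stop window alone it was 0.44 for CDC42, -0.54 for RCHY1 and -0.57 for USP7, and with the top position left out -0.079 for RARS1. Of 20 list medians, 9 turned sign in the start window, 7 in the stop window and 2 with the top position left out, and 0 under the other pseudocounts or centring. The cause was not tested. Windows alone hold fewer reads, and depth limits mRNAs under about 10 CPM most.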

Other observations

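Base composition before the transcript start went with the log2 ratio of trans2 over starvation in these libraries. Among 2389 named transcripts with a RefSeq promoter entry, 4 groups of similar size by G+C content of the 250 bases before the start had median log2 ratios of -0.004 (28.4% to 58.8% G+C), 0.01, 0.05 and 0.11 (73.2% to 96.4%). The ratio of trans1 over the same starvation library had medians of -0.06, -0.05, -0.07 and -0.10 over these groups. Level, length and library preparation were not separated from base composition, and the part of each was not tested.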
